A study of Mus musculus with 8 samples.

Results

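The cytosolic ribosomal protein genes of the mouse were described in granulosa cells of PGR-A KO and WT mice. These genes encode the proteins of the cytoplasmic ribosome, and they were chosen by symbol alone: Rpl or Rps followed by a number and at most one letter a, x or l, the stalk genes Rplp0, Rplp1 and Rplp2, and Rpsa, without symbols ending in -ps and without the Rps6k kinases. Of 51886 symbols in the table, 83 met that rule and 79 of them passed the filter of at least 1 TPM, the normalised transcript share of the table, in at least 4 of the 8 libraries, among 14472 genes that passed in all. By symbol, 32 of the 79 belong to the small subunit and 47 to the large subunit, and they lie on 19 chromosomes; 78 are annotated as protein coding and Rps4l as a transcribed processed pseudogene (GENCODE M21). The other 4, Rpl10l, Rpl32l, Rpl3l and Rpl6l, reached at most 0.578, 0.114, 0.0900 and 0.781 TPM in any library and had 0 libraries at 1 TPM.

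The study compared 4 PGR-A KO libraries, from mice lacking the A isoform of the progesterone receptor, with 4 libraries from WT mice. Both groups carry the same line name, PRAKO, in their labels. The mice of both groups were 21 to 27 days old, were primed with 5 IU eCG to grow follicles and given 5 IU hCG to trigger ovulation 46 h after it, and their granulosa cells were taken 8 h after hCG. Each library pooled cells of 2 to 3 mice, so the spread between libraries is that between pools. TPM is a share of transcripts per unit of transcript length scaled to a fixed total; it holds no read depth, so no counting interval can be given, and in these bulk samples fewer cells of a type and less RNA per cell cannot be told apart.

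Ribosomal proteins are made in near-equal amounts from many separate genes, and they join ribosomal RNA, most of them in the nucleolus and some later in the cytoplasm, to form the small or the large subunit. In vertebrates their mRNAs begin with a C followed by a run of pyrimidines, the 5′ terminal oligopyrimidine (TOP) tract, through which mTOR signalling and the RNA-binding protein LARP1 control their translation. Mammalian genomes also hold many processed pseudogenes of these genes, copies of spliced mRNA put back into the genome, and some of them match the parent so closely that a sequencing read can fit either.

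The start-site sequences are shown because the TOP tract is the feature that ties these mRNAs together. Of the 79 genes, 58 had a RefSeq start-site window (GRCm38.p6). A tract was defined as a C followed by at least 4 bases that are each C or T. It had to start within 10 bases of the annotated start on the sense strand. A gene was counted if any of its windows held a tract. That was so for 36 of the 58 genes, or 62.1%, against 34.4% of all 27025 genes with a window. Read on the opposite strand, the same search found a tract for 24.1% of the 58 genes, against 38.5% of all genes with a window. Printed as examples, and not as a full ranking by level, are windows of 8 abundant genes. In each, such a run can be read from a C within 2 bases of the annotated start. Each window holds 10 bases before the start and 20 from it. Capitals begin at that C and mark the run from there:
Rps24 (chr14:24490668-24490697, plus strand): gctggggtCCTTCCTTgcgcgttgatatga
Rpl13a (chr7:45128726-45128755, minus strand): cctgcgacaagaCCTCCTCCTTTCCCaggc
Rps18 (chr17:33955646-33955675, minus strand): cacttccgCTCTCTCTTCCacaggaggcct
Rpl7a (chr2:26910797-26910826, plus strand): ctcttctttCTTTCTCCagcagccgagcaa
Rpl38 (chr11:114668570-114668599, plus strand): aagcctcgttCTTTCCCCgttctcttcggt
Rps21 (chr2:180257369-180257398, plus strand): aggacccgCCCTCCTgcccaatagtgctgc
Rpl35a (chr16:33056472-33056501, plus strand): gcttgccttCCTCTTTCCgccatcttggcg
Rpl18 (chr7:45718061-45718090, plus strand): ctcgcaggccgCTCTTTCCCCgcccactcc
The runs differ in length and in the order of C and T, and in several windows, Rpl7a and Rpl35a among them, pyrimidines also stand just before the capitals. A match is a description of these letters, and a window without one says only that the letters are not within it.

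The copies matter for the values, so examples of how closely they match are shown next. Coding sequences were searched against the GENCODE M21 transcripts (mm10), and a copy was a transcript of another gene with at least 95% identity over at least 80% of the coding sequence. Of the 78 genes with an annotated coding sequence, 71 had at least 1 copy in the table, and 512 copies were listed in all. Rps27rt on chromosome 9 is identical to Rps27 on chromosome 3 over the whole coding sequence, whose 252 bases are printed once for both genes:
Rps27 and Rps27rt: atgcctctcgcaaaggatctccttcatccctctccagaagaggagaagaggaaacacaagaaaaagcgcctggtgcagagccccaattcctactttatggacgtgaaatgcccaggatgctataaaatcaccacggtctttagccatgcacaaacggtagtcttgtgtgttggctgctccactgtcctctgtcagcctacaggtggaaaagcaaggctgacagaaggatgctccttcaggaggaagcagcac
Rps12 and its copy Rps12-ps3 likewise share every base of the aligned coding sequence, of which bases 61 to 180 are shown:
Rps12 and Rps12-ps3: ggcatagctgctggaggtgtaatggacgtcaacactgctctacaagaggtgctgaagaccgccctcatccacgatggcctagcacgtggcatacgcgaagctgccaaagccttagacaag
Of the 22 most abundant copies that were compared base by base, 18 had no difference in the aligned coding sequence and the other 4 had 1 or 2. With positions counted from 1 at the first coding base and the ribosomal protein gene's base first, Rpl37 and Rpl37rt differ by G249A, and Rpl35 and Gm2000 by C117T, each marked by the capital in these stretches:
Rpl37: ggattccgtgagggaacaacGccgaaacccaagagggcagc
Rpl37rt: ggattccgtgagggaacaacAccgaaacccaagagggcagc
Rpl35: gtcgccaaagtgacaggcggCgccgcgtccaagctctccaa
Gm2000: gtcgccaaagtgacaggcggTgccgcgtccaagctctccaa

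The libraries did not separate by genotype on their main axis. In a principal component analysis of all other genes tested, without the ribosomal protein genes, their copies and the mitochondrial genome, the first component held 35.6% of the variance, and PGR-A KO 3 (-25.7), WT 3 (-20.5) and WT 4 (-18.2) lay at one end while PGR-A KO 1 (20.7), PGR-A KO 4 (16.1) and WT 1 (20.9) lay at the other. Transcripts of the mitochondrial genome took 21.0 to 26.5% of TPM in PGR-A KO libraries and 20.9 to 24.4% in WT libraries. The 9 granulosa markers summed to 5102 to 7293 TPM in PGR-A KO libraries and 6150 to 8476 TPM in WT libraries, and all 9 passed the filter. Markers of other cells were present: 10 oocyte genes summed to 816 to 1457 TPM in PGR-A KO and 596 to 1115 TPM in WT libraries, 8 macrophage genes to 53.4 to 114 TPM and 83.9 to 116 TPM, and 5 red-cell genes to 3661 to 6319 TPM and 1732 to 11369 TPM, in the same order. Pgr stood at 2.01 to 3.52 TPM in PGR-A KO and 0.756 to 1.56 TPM in WT libraries, a sum over transcripts that does not measure the A isoform.

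Ribosomal protein mRNAs were among the most abundant in these cells. Together the 79 genes made up 8.29, 8.48, 9.72 and 8.10% of TPM in PGR-A KO libraries and 7.88, 8.48, 10.3 and 10.1% in WT libraries. The highest shares were those of WT 3, WT 4 and PGR-A KO 3, the lowest was that of WT 1, and the groups overlapped. The mean share was 8.65 ± 0.729% in PGR-A KO and 9.18 ± 1.18% in WT (SD, n = 4 each), a log2 ratio of -0.09, so the difference in means was smaller than the spread within either group. The same 3 libraries, PGR-A KO 3, WT 3 and WT 4, were the lowest on the first component of the other genes. The 3 smooth muscle markers, summed to 82.6, 94.3 and 68.0 TPM in that order, were highest in them too, with 53.7 to 61.0 TPM in the other 5 libraries. No other marker list set these 3 libraries apart. Endothelial sums were 15.5, 22.0 and 20.1 TPM in them and 21.3 to 40.9 TPM in the other 5. Macrophage sums were 114, 90.7 and 116 TPM in them and 53.4 to 94.2 TPM in the other 5. PGR-A KO 3 also had the highest oocyte marker sum of all (1457 TPM) and the lowest granulosa sum (5102 TPM). Oocyte sums were 1183 TPM in PGR-A KO 2, 1115 TPM in WT 3 and 1084.5 TPM in WT 4. They were 596 to 892 TPM in PGR-A KO 1, PGR-A KO 4, WT 1 and WT 2. Granulosa sums were 7122 TPM in WT 3 and 6150 TPM in WT 4, with 6110 to 8476 TPM in the remaining libraries. The part of these marker levels in the shares was not tested. Taken over TPM outside the mitochondrial genome, the share was 10.5, 10.7, 13.2 and 11.0% in PGR-A KO and 9.97, 11.2, 13.0 and 13.2% in WT libraries.

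**Figure D1:**
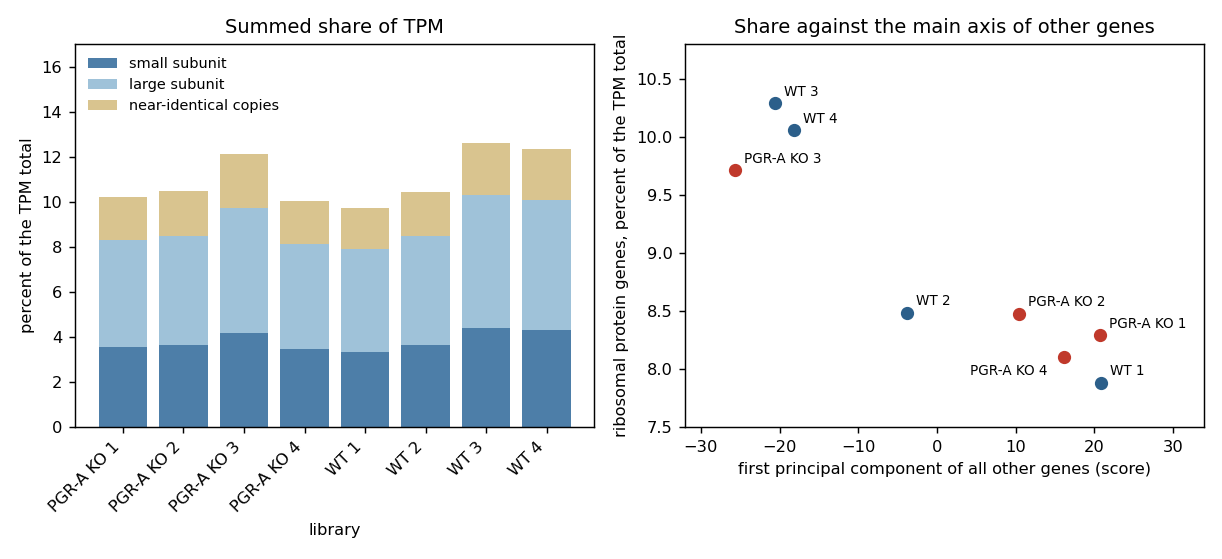
Left, share of each library's TPM, in percent, held by the small-subunit genes, the large-subunit genes and their near-identical copies, stacked, with PGR-A KO libraries left of WT libraries. Right, the share of the 79 genes in percent against each library's score on the first principal component of all other genes, red for PGR-A KO and blue for WT: WT 3, WT 4 and PGR-A KO 3 have the highest shares, 10.3, 10.1 and 9.72%, and the lowest scores.

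The subunits kept step. The 32 small-subunit genes made up 3.70 ± 0.337% of TPM in PGR-A KO and 3.91 ± 0.520% in WT, and the 47 large-subunit genes 4.95 ± 0.392% and 5.27 ± 0.660% (SD, n = 4 each). The ratio of the small to the large sum was 0.744, 0.744, 0.759 and 0.739 in PGR-A KO libraries and 0.731, 0.744, 0.745 and 0.748 in WT libraries. It therefore moved within a narrow band in all 8 libraries while the shares themselves varied.

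Most single genes followed the same library order. For 67 of the 79, the 3 highest libraries were PGR-A KO 3, WT 3 and WT 4. PGR-A KO 3 was the highest PGR-A KO library for 75 genes, and WT 3 or WT 4 the highest WT library for 78. WT 1 was the lowest WT library for 62 genes. All values of a library share its RNA and its scaling, so this is a description of the libraries and not of the genotypes. Rps27, a zinc-finger protein of the small subunit, did not follow the order. It was the one gene with WT 1 as its highest library, and PGR-A KO 4, PGR-A KO 3 and WT 3 were its 3 lowest. PGR-A KO 4 was the lowest library for 31 of the 79 genes, Rps27 among them. Over the 8 libraries, Rps27 correlated at -0.23 with the mean of the other ribosomal protein genes.

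**Figure D2:**
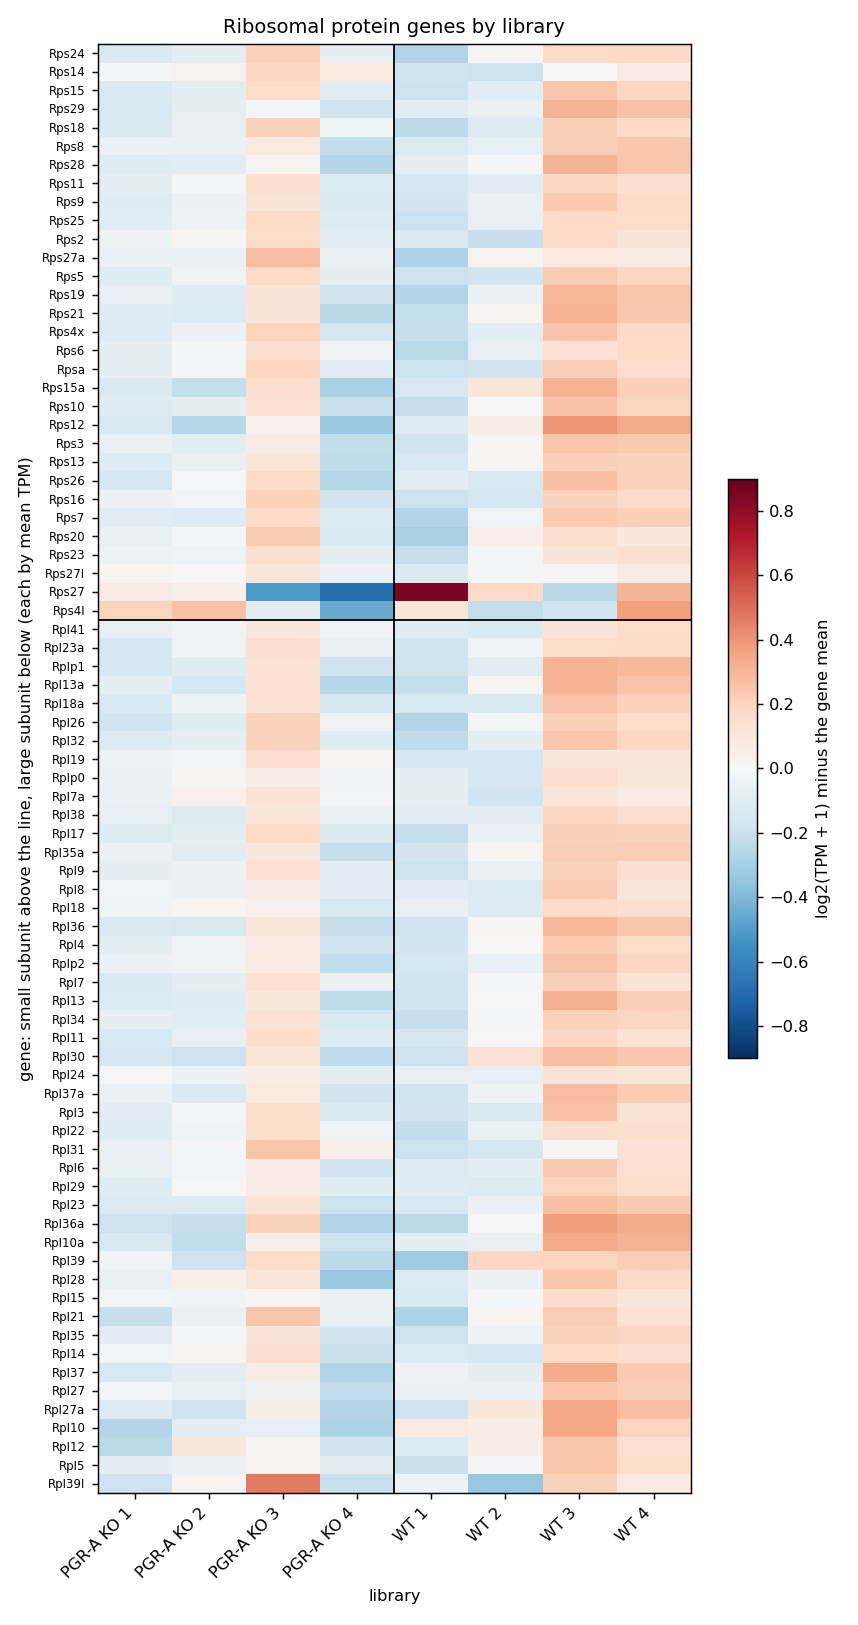
Level of 78 of the 79 genes in each library as log2(TPM + 1) minus the gene's mean over the 8 libraries, with rows for genes of the small and large subunit and columns for PGR-A KO libraries left of WT libraries. Columns PGR-A KO 3, WT 3 and WT 4 are high for most rows, as they are the 3 highest for 67 of the 79 genes. The row of Rps27 departs from this, with WT 1 highest and PGR-A KO 3 and WT 3 among its 3 lowest.

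Levels per transcript length spanned a wide range although the proteins are used in near-equal amounts. The median of the 79 means over 8 libraries was 1099 TPM; 68 genes were over 500 TPM, 48 over 1000 TPM, and 41 of the 100 most abundant symbols of the table were ribosomal protein genes. Rpl41, which encodes a very short basic peptide of the large subunit, was highest, with 3588 ± 194 TPM in PGR-A KO and 3639 ± 393 TPM in WT. Rpl23a, a protein at the mouth of the exit tunnel, had 3005 ± 268 TPM and 3138 ± 366 TPM, and Rps24, of the small subunit, had 2257 ± 250 TPM and 2333 ± 319 TPM (SD, n = 4 each, PGR-A KO then WT). At the low end of the levels stood Rpl39l, with 4.60 ± 1.30 TPM in PGR-A KO and 4.38 ± 0.846 TPM in WT, Rps4l at 31.1 ± 6.91 and 31.9 ± 6.43 TPM, Rpl5 at 49.1 ± 1.93 and 53.1 ± 7.40 TPM, Rpl12 at 63.3 ± 6.89 and 70.7 ± 7.58 TPM, and Rps27 at 76.4 ± 20.1 and 113 ± 36.6 TPM. The low levels of Rpl5, Rpl12 and Rps27 changed when their copies were counted with them, as described further on.

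The spread over the 8 libraries was small for most genes. The median coefficient of variation (CV) was 11.7%, and 68 of the 79 genes were under 15%. Least variable were Rps27l at 5.13%, Rpl24 at 5.97%, Rpl15 at 6.54%, the stalk base protein Rplp0 at 6.98% and Rpl7a at 7.24%. Rpl24 had 998 ± 46.4 TPM in PGR-A KO and 1027 ± 76.3 TPM in WT, and Rpl7a 1463 ± 83.2 and 1424 ± 132 TPM (SD, n = 4 each). Most variable were Rps27 at 35.5%, Rpl39l at 22.8%, Rps4l at 19.7%, Rpl36a at 19.1% and Rps12 at 19.0%. Of these, Rpl39l and Rps4l were low in level, and Rps27, Rpl36a and Rps12 have near-identical copies listed with TPM of their own.

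No ribosomal protein gene passed the test between genotypes. Levels were tested as log2(TPM + 1) with limma over all 14472 genes with Benjamini-Hochberg adjustment, and 0 of the 79 reached an adjusted p under 0.05, where 2 of all genes did (0.0138%). At an unadjusted p under 0.05, 2 of the 79 genes were counted, Rpl10 and Rps12, both lower in PGR-A KO, where the share of all genes was 6.31% in either direction, 5.33% lower and 0.974% higher. The libraries of the groups did not overlap for 1 of the 79, Rpl10, where the share of all genes was 3.42% in either direction, 2.82% lower and 0.601% higher. The 95% interval lay between -0.5 and 0.5 on the log2 scale for 71 of the 79 genes, and over all 79 the bounds ran from -1.10, for Rps27, to 0.45, for Rpl39l.

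The signs leaned one way by a small amount. The mean log2 level was lower in PGR-A KO for 69 of the 79 genes and higher for 10 (counts of lower and higher genes here refer to mean log2 levels), where 57.4% of all genes were lower, and the median log2 change was -0.08, against -0.02 over all genes tested. Of the small-subunit genes 26 were lower and 6 higher with a median of -0.06, and of the large-subunit genes 43 were lower and 4 higher with a median of -0.09. The genes vary together within a library, so the 69 are not separate observations. The split was 60 lower and 19 higher after scaling by trimmed mean of M-values (TMM), where 48.5% of all genes were lower, 57 and 22 after quantile normalization, where 45.6% were, and 61 and 18 when libraries were rescaled without the mitochondrial genome, where 50.1% were. Centring libraries on the ribosomal protein genes, which sets their average change near 0 by construction, gave 32 and 47, with 30.4% of all genes lower. With each library left out, the split ran from 49 lower and 30 higher, without WT 3, to 74 and 5, without PGR-A KO 3 or without WT 1. For the 78 tested genes of mitochondrial ribosomal proteins, encoded in the nucleus like the cytosolic ones, 49 were lower and 29 higher in PGR-A KO, with a median of -0.03 and 0 past the threshold.

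**Figure D3:**
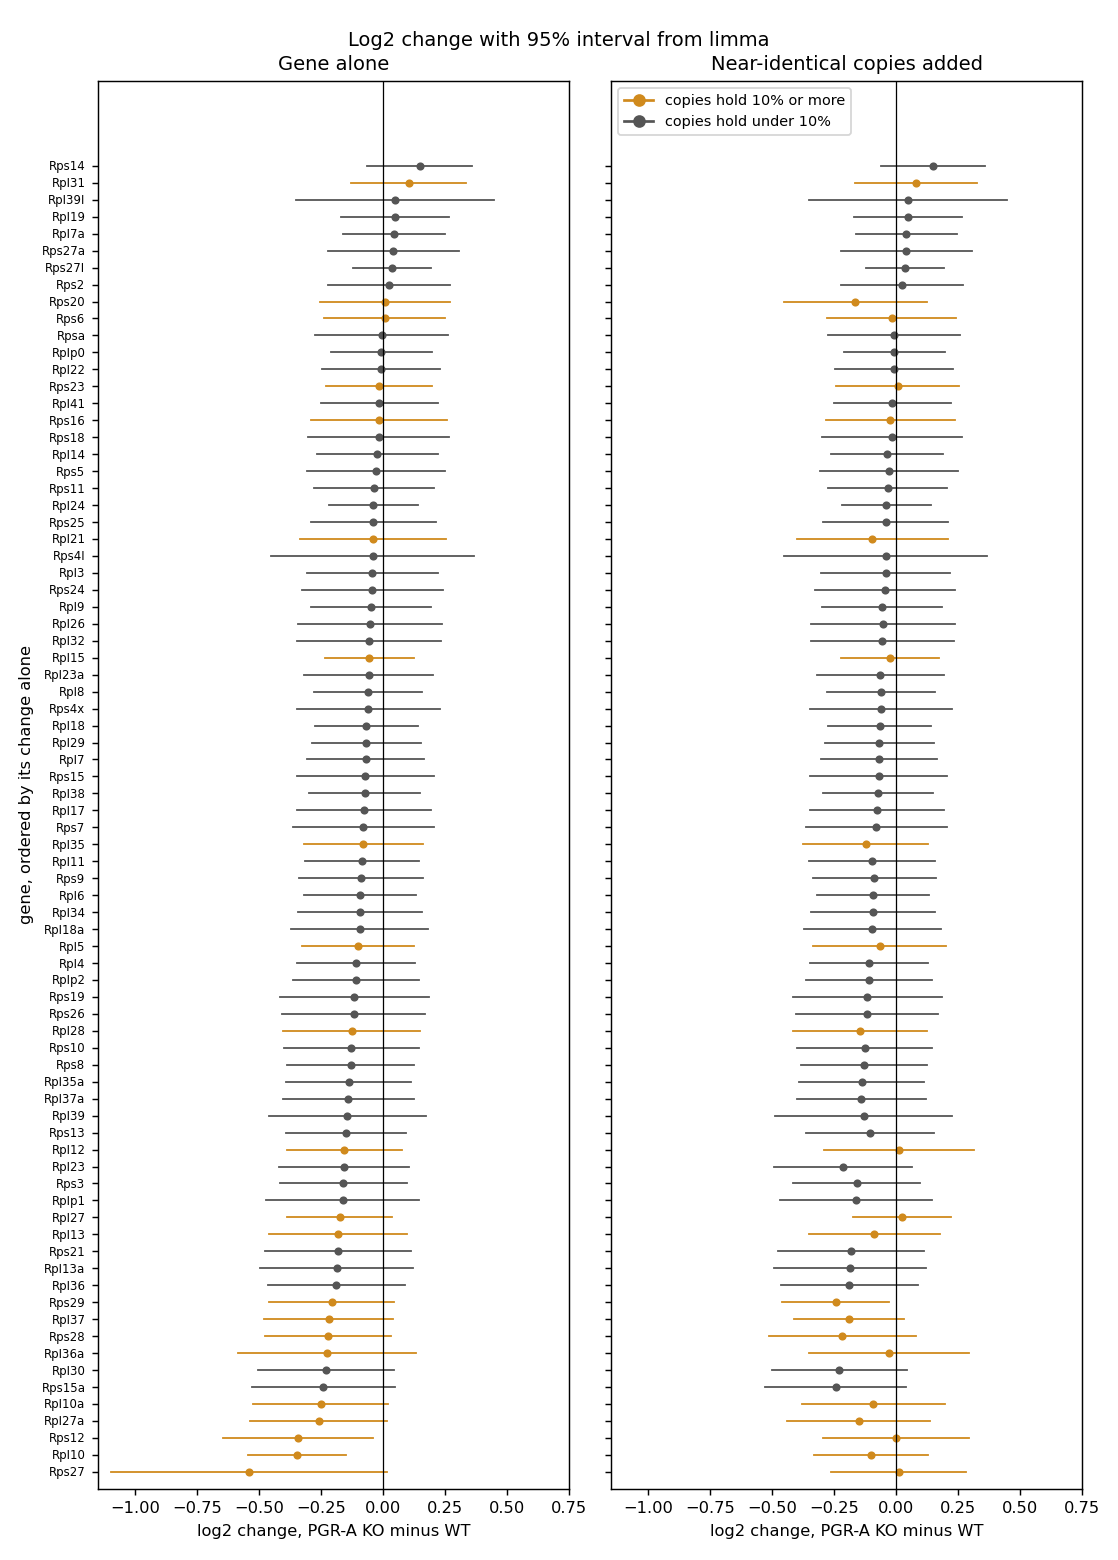
Log2 change, PGR-A KO minus WT, of 78 of the 79 genes on the log2(TPM + 1) scale with its 95% interval from limma, for the gene alone (left) and with its near-identical copies added (right), in orange where copies hold at least 10% of the summed TPM. On the left the points lie between -0.54 for Rps27 and 0.15 for Rps14, most of them below 0, and on the right Rps27, Rps12 and Rpl10 lie at 0.01, -0.00 and -0.10.

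The lowest p belonged to Rpl10 (chromosome X, 74270812 to 74273135, plus strand, mm10), a large-subunit protein that helps to shape the catalytic core late in assembly. It had 185, 210, 211 and 183 TPM in PGR-A KO libraries and 235, 231, 283 and 255 TPM in WT libraries. Every PGR-A KO library was lower than every WT library. The means were 197 ± 15.2 TPM in PGR-A KO and 251 ± 23.8 TPM in WT (SD, n = 4 each), a log2 change of -0.35 with SE 0.0873, a limma adjusted p of 0.582 and an exact 2-sided permutation p of 0.0286, which is the floor with 4 libraries against 4. Rps12 (chromosome 10, 23785183 to 23787275, minus strand), a protein of the small subunit head, came next, with 941, 864, 1061 and 821 TPM in PGR-A KO and 953, 1073, 1368 and 1309 TPM in WT libraries. Only PGR-A KO 3 lay above the lowest WT library. Its log2 change was -0.34 with SE 0.134 and a limma adjusted p of 0.783.

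Rps27 (chromosome 3, 90212522 to 90213651, minus strand) had the largest change of the 79, though with the widest interval. It had 94.4, 92.9, 62.5 and 55.7 TPM in PGR-A KO libraries and 163, 102, 75.3 and 111 TPM in WT libraries. The groups overlapped, and WT 1 stood well above the other WT libraries. The log2 change was -0.54, with a 95% interval of -1.10 to 0.02 and a limma adjusted p of 0.783. The next 7 by p were Rpl27a, Rpl10a, Rps28, Rpl37, Rpl30, Rps15a and Rpl27, all with lower means in PGR-A KO, log2 changes of -0.26 to -0.18 and limma adjusted p of 0.789 to 0.796. Rpl27a, of the large subunit, averaged 210 ± 20.6 TPM in PGR-A KO and 253 ± 40.2 TPM in WT, and Rpl30, known for binding its own transcript in yeast, 946 ± 104 TPM and 1114 ± 153 TPM (SD, n = 4 each). In PGR-A KO and WT, Rpl10a averaged 643 ± 54.9 and 771 ± 124 TPM, Rps15a 1005 ± 141 and 1188 ± 157 TPM, Rpl37 456 ± 44.7 and 533 ± 76.3 TPM, and Rpl27 364 ± 22.5 and 413 ± 47.6 TPM. In each of these the difference in means was close to the SD of the WT libraries. The largest change upward was that of Rps14, a protein of the small subunit platform, with 1892, 1944, 2173 and 2024 TPM in PGR-A KO and 1682, 1667, 1909 and 2005 TPM in WT libraries. Its groups overlapped, and the log2 change was 0.15 with a limma adjusted p of 0.827.

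By role, the stalk proteins Rplp0, Rplp1 and Rplp2, which recruit the translation factors, were lower on average in PGR-A KO in 3 of 3 cases, and none passed. Rplp0 averaged 1448 ± 51.1 TPM in PGR-A KO and 1460 ± 146 TPM in WT, Rplp1 1939 ± 199 and 2188 ± 381 TPM, and Rplp2 1107 ± 95.1 and 1200 ± 163 TPM. Rpl5, Rpl11 and Rpl23 bind Mdm2, the ligase that degrades p53, and Rpl5 and Rpl11 do so as parts of the particle with 5S RNA. All 3 had lower means in PGR-A KO: Rpl11 had 1020 ± 99.0 TPM in PGR-A KO and 1082 ± 111 TPM in WT, and Rpl23 777 ± 78.6 and 871 ± 123 TPM (SD, n = 4 each). Their limma adjusted p was 0.851 or above.

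A list of 13 of these genes is known for mutations in Diamond-Blackfan anaemia in humans, in which red-cell precursors fail. The list is not complete: Rpl31 and Rps20, also reported in the disease, averaged slightly higher in PGR-A KO, with log2 changes of 0.10 and 0.01. All 13 on the list averaged lower in PGR-A KO, with log2 changes of -0.22 to -0.04 and a median of -0.10, and 0 passed. Rps19, the gene most often affected, had 1235, 1201, 1404 and 1159 TPM in PGR-A KO and 1083, 1251, 1594 and 1546 TPM in WT libraries, with both extremes in WT. The lowest p of the 13 was that of Rps28, a small-subunit protein near the mRNA exit, at 1364 ± 111 TPM in PGR-A KO and 1597 ± 214 TPM in WT, with a limma adjusted p of 0.795. In PGR-A KO and WT, Rps26 averaged 840 ± 110 and 913 ± 131 TPM, Rps10 1041 ± 108 and 1143 ± 164 TPM, and Rps7 780.1 ± 80.3 and 829 ± 131 TPM. Of the large-subunit genes on the list, Rpl35a averaged 1178 ± 105 and 1302 ± 168 TPM, Rpl26 1770.3 ± 211 and 1842 ± 265 TPM, and Rpl15 679 ± 16.8 and 708 ± 62.9 TPM (SD, n = 4 each). The differences in means of these 6 were smaller than the SD of the WT libraries.

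Several of these genes are in common use as references in qPCR. Rpl19 averaged 1552 ± 95.1 TPM in PGR-A KO and 1506 ± 158 TPM in WT, Rps18 1602 ± 171 and 1630 ± 244 TPM, Rpl32 1532 ± 174 and 1600 ± 244 TPM, Rpl7 1087 ± 91.5 and 1144 ± 134 TPM, and Rpl13a 1811 ± 211 and 2073 ± 336 TPM (SD, n = 4 each). With Rplp0, 5 of the 6 averaged lower in PGR-A KO, and 0 passed the test. Their CV over the 8 libraries was 6.98% for Rplp0, 8.06% for Rpl19, 9.89% for Rpl7, 12.1% for Rps18, 12.7% for Rpl32 and 15.2% for Rpl13a. Among references that are not ribosomal, Tbp had a CV of 5.71%, Ppia 5.73%, B2m 6.01%, Actb 10.9% and Ywhaz 21.1%, and 0 of 10 passed. The interval of the change was -0.17 to 0.27 for Rpl19 and -0.49 to 0.12 for Rpl13a on the log2 scale.

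Of 5 listed paralogs, Rps27l, Rpl39l and Rps4l passed the filter and 0 passed the test. Rps27l, a p53 target in human cells and a near twin of Rps27, had 342, 337, 364 and 325 TPM in PGR-A KO libraries and 308, 333, 339 and 355 TPM in WT libraries. It was the steadiest of the 79 genes and had a log2 change near 0, at 0.03. The change of Rps27 was -0.54 alone and 0.01 with its near-identical copies added. Rpl39l, best known from the testis, was at 4.60 ± 1.30 TPM in PGR-A KO and 4.38 ± 0.846 TPM in WT, against 663 ± 85.3 and 737 ± 121 TPM for its parent Rpl39. Rps4l, which has no annotated coding sequence, was at 31.1 ± 6.91 TPM in PGR-A KO and 31.9 ± 6.43 TPM in WT. Rps3a1, Fau, Rpl36al, Rpl22l1 and Rack1, ribosomal proteins whose symbols the rule leaves out, averaged lower in PGR-A KO in 5 of 5 cases, and 0 passed the test.

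Many of the genes named so far have a sequence that is also listed under another symbol. For 22 of the 79 genes the copies held at least 10% of the TPM summed over gene and copies, for 12 of them over 50%, and for the other 57 the share was under 5.5%. The share was 96.8% for Rps27, 96.1% for Rpl5, 94.9% for Rpl12, 88.2% for Rpl27a, 87.6% for Rpl10 and 80.9% for Rps23. Of the 10 genes with the lowest p, 8 were among the 22. Since the share is taken over gene and copies, a gene with a low value of its own has a high share by construction. The copy with most TPM was on another chromosome for 21 of the 22, was annotated as a processed or transcribed processed pseudogene for 18, and had no difference in the aligned coding sequence for 18. How reads that fit a gene and its copy were divided is not given in the sources used here, so transcription of the copy and reads of the gene counted under the copy cannot be told apart in these values.

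**Figure D4:**
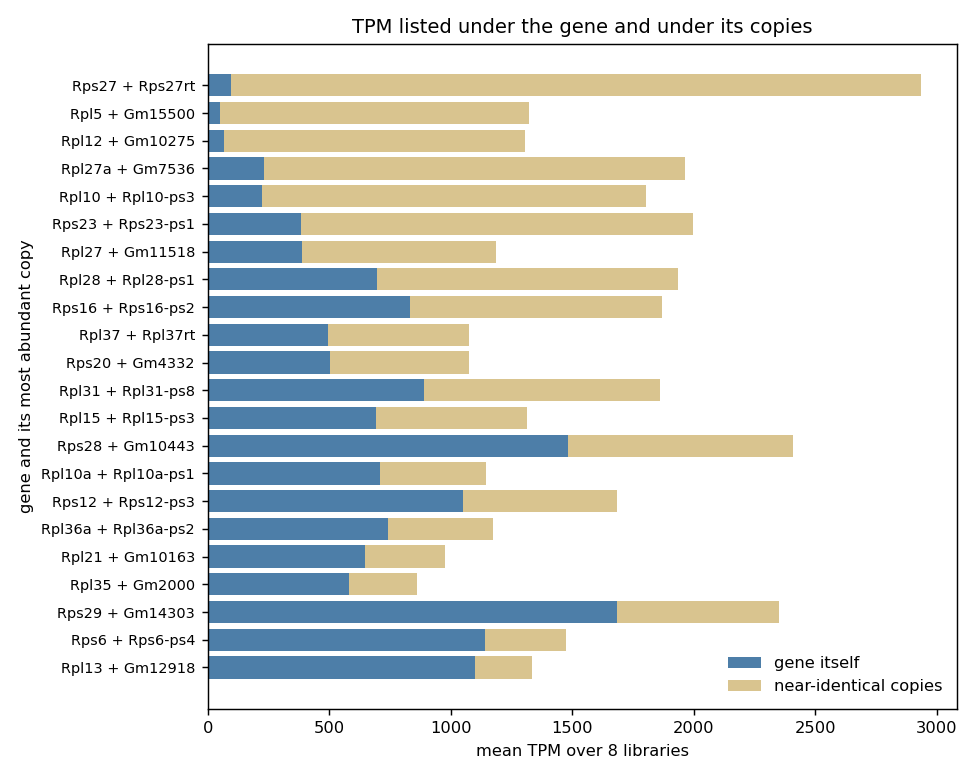
Mean TPM over 8 libraries of each of the 22 genes whose copies hold at least 10% of the summed TPM, stacked as the gene's own value and that of all its copies, with the most abundant copy named beside it. Rps27, Rpl5 and Rpl12 stand under 100 TPM alone, and all 22 sums lie between 861 and 2936 TPM.

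Adding the copies brought Rpl5, Rpl12 and Rps27 to the level of the other genes, while Rpl39l and Rps4l remained the lowest. The 22 sums ranged from 861 to 2936 TPM. Rpl5 with its copies, mainly Gm15500, stood at 1291 ± 155 TPM in PGR-A KO and 1354 ± 169 TPM in WT, and Rpl12 with its copies, mainly Gm10275, at 1309 ± 177 and 1302 ± 200 TPM. Rps27 with its copies, mainly Rps27rt (chromosome 9, 114982366 to 114982739, minus strand), stood at 2944 ± 334 TPM in PGR-A KO and 2928 ± 339 TPM in WT (SD, n = 4 each). Its log2 change was then 0.01 (limma adjusted p = 0.994), where it was -0.54 for Rps27 alone, and its CV was 10.6%, against 35.5% alone. With copies added to all 79 genes, 74 had PGR-A KO 3, WT 3 and WT 4 as their 3 highest libraries, and the number of genes over 500 TPM was 76.

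Rps12 and its main copy had changes of opposite sign, and neither passed the test. Rps12-ps3 (chromosome 19, 59322290 to 59322783, plus strand), all of whose 494 bases lie within an Rps12 transcript, had 610, 748, 913 and 758 TPM in PGR-A KO libraries and 453, 452, 557 and 583 TPM in WT libraries. Every PGR-A KO library was higher than every WT library, while Rps12 itself was lower in PGR-A KO. The log2 change of Rps12-ps3 was 0.56 with SE 0.137, an exact permutation p of 0.0286 and a limma adjusted p of 0.570. Rps12 with its copies had 1553, 1613, 1975 and 1580 TPM in PGR-A KO and 1407, 1527, 1929 and 1894 TPM in WT libraries. The summed means were 1680 ± 198 TPM in PGR-A KO and 1689 ± 262 TPM in WT, a log2 change of -0.00 with a 95% interval of -0.30 to 0.29 (limma adjusted p = 0.999).

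For Rpl10 the copy with most TPM held more than the gene. This copy, Rpl10-ps3 (chromosome 9, 50344201 to 50344968, minus strand), is identical over the coding sequence and averaged 1535 ± 106 TPM in PGR-A KO and 1614 ± 184 TPM in WT, a level well above that of Rpl10 in every library. Rpl10 with its copies had 1662, 1742, 1900 and 1637 TPM in PGR-A KO and 1600, 1830, 2066 and 1979 TPM in WT libraries, so that the groups overlapped. The log2 change was -0.10, with a 95% interval of -0.33 to 0.13 and a limma adjusted p of 0.907.

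**Figure D5:**
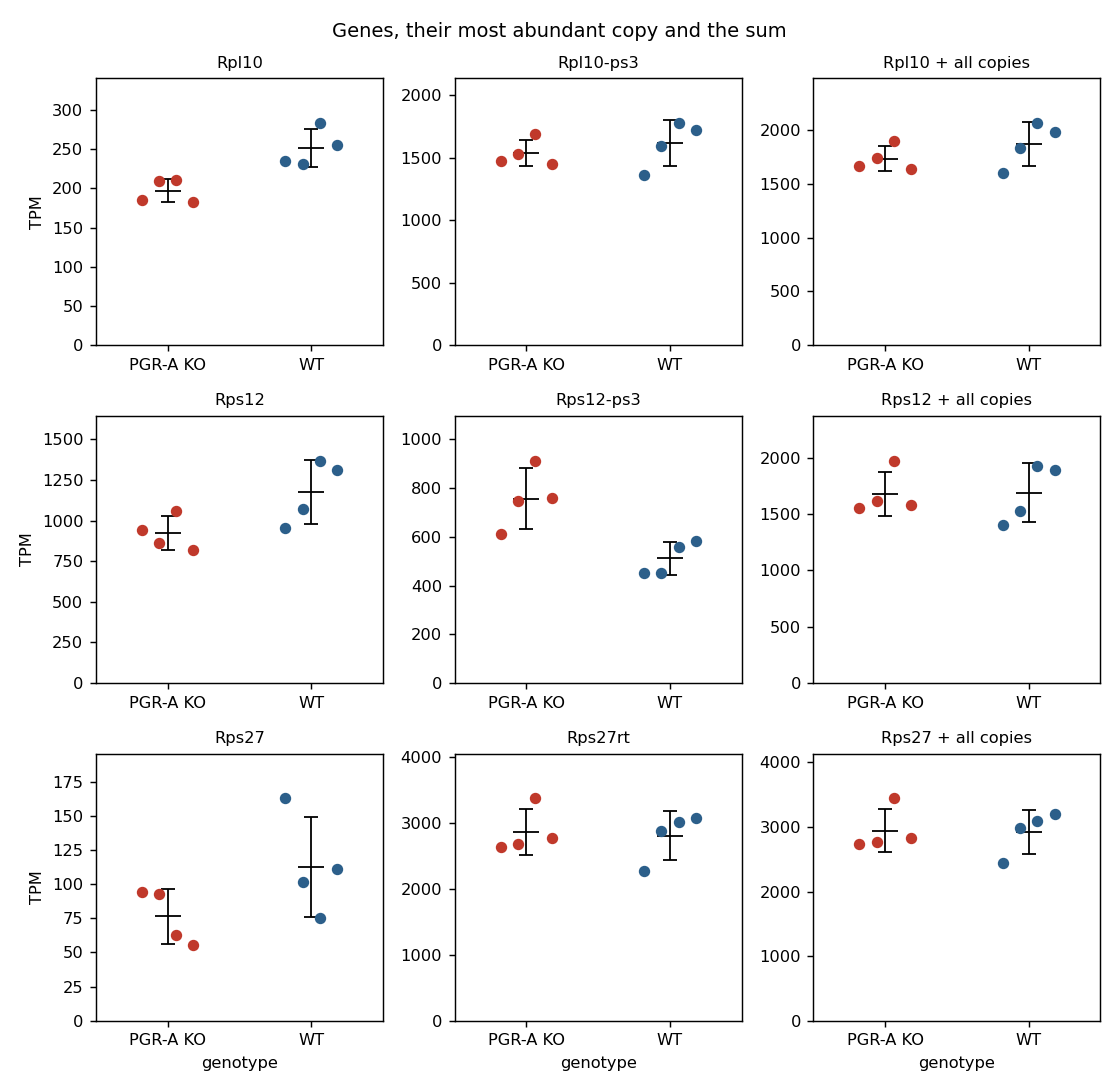
TPM in each library of Rps12, Rpl10 and Rps27, of the copy with most TPM of each, and of the gene with all its copies, PGR-A KO left of WT, with means and SD. Rps12 is lower and Rps12-ps3 higher in PGR-A KO, and their sums average 1680 TPM in PGR-A KO and 1689 TPM in WT.

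Over the 22 genes, the main copy had a higher mean in PGR-A KO for 10 and a lower mean for 12, and for 11 its sign was opposite to that of the gene. Of the 22 main copies, 4 had an unadjusted limma p under 0.05, 3 higher in PGR-A KO and 1 lower. The share of all genes was 6.31%, with 5.33% lower and 0.974% higher. The 3 were Rps12-ps3, Rpl36a-ps2 and Gm12918, opposite in sign to their genes. The 1 was Gm14303, the main copy of Rps29, with the same sign as its gene. The main copies of Rpl36a and Rpl13 had higher means in PGR-A KO while the genes themselves had lower ones. Rpl36a-ps2 averaged 473 ± 95.2 TPM in PGR-A KO and 376 ± 22.4 TPM in WT, where Rpl36a had 681 ± 109 and 802 ± 158 TPM, and the sum with all copies was 1162 ± 195 and 1186 ± 178 TPM. Gm12918, the copy of Rpl13, averaged 263 ± 27.2 TPM in PGR-A KO and 204 ± 41.9 TPM in WT, with a limma adjusted p of 0.783. The summed change was nearer 0 than the gene's own for 15 of the 22 and farther for 7. With copies added, 0 of the 79 genes passed over 14402 features tested, where 2 of all did (0.0139%), and at an unadjusted p under 0.05 there was 1, where the share of all was 6.26%, with 5.29% lower and 0.972% higher. That gene was Rps29, a small-subunit zinc-binding protein, at 2148 ± 133 TPM in PGR-A KO and 2549 ± 231 TPM in WT with its copies, a log2 change of -0.24 and a limma adjusted p of 0.790. Alone, Rps29 had a log2 change of -0.21 and an unadjusted limma p of 0.096. Its main copy, Gm14303, had a log2 change of -0.31 and an unadjusted limma p of 0.035. Gm14303 stood at 936 TPM in WT 1 and at 636, 683 and 694 TPM in the other WT libraries. Of the signs, 67 were then lower in PGR-A KO and 12 higher, where 57.3% of all features were lower, and 0 of the 79 had groups that did not overlap, where the share of all was 3.36%, with 2.76% lower and 0.597% higher.

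Genes that act with the ribosomal proteins also showed no member past the threshold. Of 14 other mRNAs known to carry a TOP tract, 12 had lower means in PGR-A KO and 2 higher, with a median log2 change of -0.04. Among them the elongation factor Eef1a1 stood at 5251 ± 245 TPM in PGR-A KO and 5422 ± 425 TPM in WT, and Tpt1, which had a higher mean in PGR-A KO, at 5187 ± 397 and 4564 ± 416 TPM. The lowest p of that list was for Eif3f, an initiation factor subunit, at 107 ± 6.58 TPM in PGR-A KO and 126 ± 15.2 TPM in WT, with a limma adjusted p of 0.783. Ribosome assembly factors split evenly, 15 lower and 15 higher of 30, with a median of 0.00, RNA polymerase I genes 8 lower and 4 higher of 12, and regulators of ribosome production 13 lower and 8 higher of 21. Of these regulators Myc, which raises ribosomal gene transcription, averaged 44.7 ± 8.96 TPM in PGR-A KO and 52.2 ± 11.6 TPM in WT (SD, n = 4 each).

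None of the marker lists of cell types had a member past the threshold. In mean log2(TPM + 1), 10 of 10 oocyte and 5 of 5 red-cell markers were higher in PGR-A KO, although 3 of the red-cell genes had a lower mean TPM there, and 7 of 8 macrophage, 5 of 5 surface epithelium and 6 of 9 granulosa markers were lower. Endothelial markers split 3 lower and 2 higher, those of theca and stroma 3 and 3, and those of smooth muscle 2 and 1. Their part in the levels of the ribosomal protein genes was not tested. When PGR-A KO 3 and WT 1 were both left out, a choice made after results were seen, 7 of the 79 genes passed, all lower in PGR-A KO, where 7.44% of all genes passed in either direction and 3.92% in the lower one. These libraries were the highest PGR-A KO library for 75 and the lowest WT library for 62 of the genes, so leaving them out lowers PGR-A KO against WT by construction.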

How the data were processed

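Polyadenylated RNA of 4 PGR-A KO and 4 WT pools of granulosa cells was sequenced as paired ends from a stranded kit, per the labels. Values are TPM as deposited by the authors, 1 table for 51886 symbols. FastQC, Salmon, limma, edgeR and mm10 appear in the authors' processing notes, per the labels, without version or role. The annotation, the summing to genes and the treatment of shared reads are not stated there. TPM summed to 994519 to 997022 per library, depth is unknown, and no pair of libraries held identical values.

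With no counts, log2(TPM + 1) was tested with limma 3.58.1 (R 4.3.3, intensity trend, no covariate, 2-sided, Benjamini-Hochberg over 14472 genes, threshold 0.05). Changes are PGR-A KO minus WT on that scale, which understates low genes. Exact permutation tests ran over 70 assignments, 2-sided. Copies were found with BLASTN 2.17.0 on the plus strand. TOP tracts were searched in RefSeq start-site windows. Steps were tested on simulated data.

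The genes, lists and alternatives were chosen with earlier results of these data known. Genes named were the 10 with the lowest p, the 5 highest and lowest by level, the 5 most and least variable, and members of role lists, or the lowest p of other lists; Rpl39, Rps14, Rps23 and the copies were chosen after their values were seen. Alternatives were other pseudocounts, filters, scalings, limma settings, a replicate block, each library left out, copies added, and 6 libraries. Values of 1 of the 79 genes and of 1 related gene are not reported here.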

Additional observations from a re-analysis of the deposited data

Results flagged for a closer look

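In 4 genes, PGR-A KO 3 stood far above the other PGR-A KO libraries for its group of 4, beyond the limit of Dixon's test. Rps24 was at 2627 TPM there, with 2083 to 2161 TPM in the other PGR-A KO libraries. Rpl36a was at 843 TPM, with 604 to 643 TPM in the others, Rps7 at 900.2 TPM, with 734 to 748 TPM, and Rpl32 at 1793 TPM, with 1426 to 1465 TPM. The test covered 80 groups, those of 40 named genes in 2 genotypes. If the groups were separate, chance would flag about 1 in 20 of them, or about 4. They are not separate, because the genes vary together within a library. All 4 flags fell on PGR-A KO 3, which was the highest PGR-A KO library for 75 of the ribosomal protein genes. The number found can therefore not be judged against the number given by chance.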

How the results depend on the processing

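Under the alternatives run with all 8 libraries or with 1 left out, 0 of the 79 genes passed; with 6 libraries, without PGR-A KO 3 and WT 1, 7 did. Of all genes 2 passed as reported, 3 at pseudocount 0.1, 1 at pseudocount 5, 1 to 5 with each library left out, and 1077 with those 6. The number of the 79 at an unadjusted p under 0.05, 2 as reported, is given next with the share of all features: 5 (6.29%) after quantile normalization, 1 (6.14%) rescaled without the mitochondrial genome, 4 (3.92%) centred on the 79 genes, 1 (6.26%) with copies added, and 38 (24.9%) with the 6 libraries. With each library left out it was 1 to 16: 16 (12.7%) without WT 1, 7 (10.7%) without PGR-A KO 3, 4 (4.64%) without WT 2, and 1 without PGR-A KO 4 (3.47%) or WT 4 (5.16%). With copies added, the sign of 6 genes turned: to 0.0093 for Rps27, 0.024 for Rpl27, 0.01 for Rpl12 and 0.01 for Rps23, and to -0.16 for Rps20 and -0.02 for Rps6. Each sum also holds the TPM listed under the copies, and the source of the turns was not tested. The number of genes lower in PGR-A KO ran from 49 to 77 and the median change from -0.22 to -0.03 over the alternatives other than centring. Whether libraries of the same replicate number belong together is not known from the labels. Deviations of same-numbered libraries correlated at 0.361, -0.109, 0.393 and -0.29, which cannot settle it. With the replicate block 0 of the 79 passed and 6 had an unadjusted p under 0.05, where 9.45% of all genes had. Depth is unknown, so counting error could not be given for any level.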
